A study of Anser cygnoides with 12 samples.

Results

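The 12 ileum libraries of this study were split into 2 sides, chosen by the count of a single W-linked gene, LOC125179667. The 6 female-like libraries held more than 2000 counts of it and the 6 male-like libraries fewer than 500, with 2 and 2 in each diet group. The labels give no sex: it is inferred here from this gene, and the comparison covers all 12 libraries of the series. The geese were of the domestic Yangzhou breed, and the tissue was the ileum, where the small intestine ends. High protein geese ate feed with 21% crude protein, lactulose geese the same feed with 0.3% lactulose, a disaccharide that is not digested, and control geese the basal feed with 18% crude protein. The female-like libraries were high protein 1 and 4, lactulose 2 and 6, and control 6 and 7, and the male-like ones high protein 3 and 5, lactulose 3 and 5, and control 3 and 4. Poly(A) RNA was sequenced from each. Whether each replicate came from its own bird is not said in the labels, and p-values then reflect only the spread among these libraries, which may be technical.

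In birds the female carries a Z and a W chromosome and the male a pair of Z chromosomes. The W is a reduced relative of the Z that keeps copies of some Z genes, so that females hold a Z copy and a diverged W copy of these. Birds do not silence a whole Z in males, and many Z genes are transcribed at a lower level in female tissues, while genes in the segment where Z and W still pair are present on both.

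LOC125179667 lies at 4297 to 23424 on the plus strand of a scaffold of the deposited table, and its protein description is that of HNRNPK, an RNA-binding protein of the nucleus. Its count was 4156 in high protein 1, 3357 in high protein 4, 4294 in lactulose 2, 3837 in lactulose 6, 3894 in control 6 and 3804 in control 7. In the male-like libraries it was 86 in high protein 3, 82 in high protein 5, 409 in lactulose 3, 45 in lactulose 5, 12 in control 3 and 41 in control 4. The values next to the thresholds were thus 3357 above and 409 below, with a wide gap between them. Because these counts made the split, they carry no test, and the same holds for other genes of the W. Total counts ranged from 38706155 to 48251825 per library, and 16947 to 17492 genes had a count above 0.

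Both lactulose 3 and control 3 stood apart among the male-like libraries. Copies of Z genes were found by protein description, as genes with a LOC name on W, on chromosome 36 or on no chromosome that share the description of a named Z gene. There were 52, of which 38, the gene of the split among them, reached a CPM of 1 on average in the female-like libraries. In lactulose 3 their median level was 12.1% of the female-like mean, with quartiles of 9.14% and 17.9%. In the other 5 male-like libraries that median lay between 0% and 2.11%. Lactulose 3 was above each other male-like library for 30 of the 38 copies and above lactulose 5 for 35. Its level of Z genes lay with the male-like side, as the lowest there, at a median log2 deviation of 0.17 against 0.18 to 0.26 in the others. Its overall profile was closest to lactulose 5, with a Pearson correlation of log2 CPM across genes of 0.98. This was the highest value of any pair of libraries, and the next was 0.972, between control 6 and lactulose 2. Whether lactulose 3 and lactulose 5 came from different birds is not said in the labels. Control 3 was the least like the other libraries, with a median correlation of 0.940, and had the highest total count. Many results that depend on either library are given below with and without it. The sums of Z gene and copy are given with all libraries only.

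**Figure D1:**
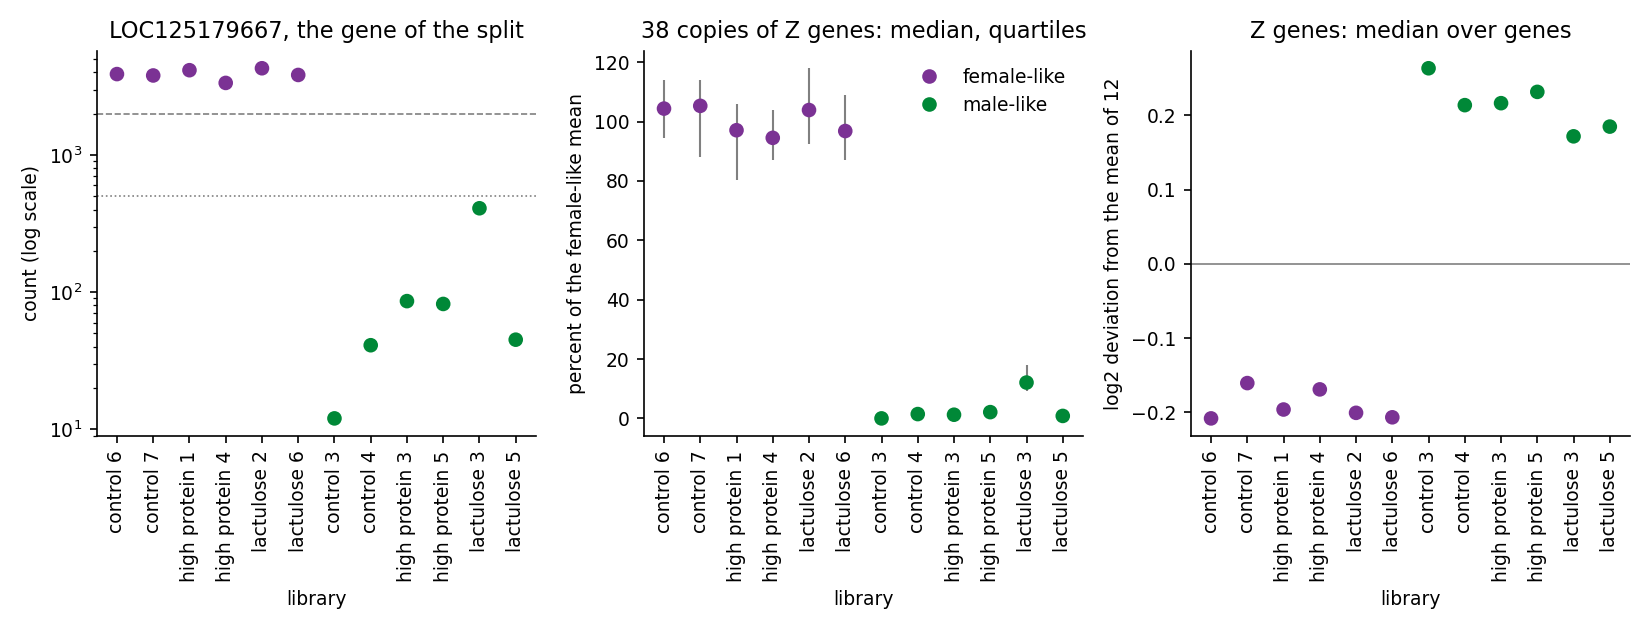
Each point is 1 library, with the female-like libraries on the left and the male-like ones on the right of each panel. The left panel shows the count of LOC125179667 on a log scale with the thresholds of 2000 and 500, the middle panel the median and quartiles of 38 copies of Z genes as a percent of their female-like mean, and the right panel the median log2 deviation of Z genes from their mean over 12 libraries. Lactulose 3 is the male-like library with the highest copy level, at 12.1%, and its Z level of 0.17 is the lowest of the male-like values.

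Many W-like genes had several FPKM in the female-like libraries and values near 0 in the male-like ones. Without lactulose 3, 32 of the 38 copies had a male-like mean under 5% of the female-like mean. This is a description only, since the copies were kept for their female-like level and include the gene of the split. Of the 6 genes given next, those described as ZFR, NIPBL and UBQLN1 are among the 38. The other 3 carry the name of a Z gene in a description that does not match it word for word, and they were chosen after their values were seen. LOC125181434, described as BTF3, a factor that binds newly made proteins at the ribosome, had 63.3 FPKM at the lowest, 72.8 at the median and 96.2 at the highest in the female-like libraries. In the male-like libraries it had 0.171, 1.24 and 9.90 FPKM, the last in lactulose 3 and the next highest at 1.5. FPKM is a count scaled to transcript length and library size, so that levels of different genes can be set side by side. LOC125181538, described as the RNA-binding protein ZFR, ranged from 4.75 to 6.04 FPKM in female-like libraries and from 0.0485 to 0.559 in male-like ones. LOC125181257, described as the cohesin loader NIPBL, ranged from 3.51 to 4.92 FPKM, against 0.0206 to 0.362 FPKM in male-like libraries. LOC125181577, described as UBQLN1, which carries tagged proteins to the proteasome, ranged from 8.84 to 13.6 FPKM, against 0.0215 to 1.13. LOC125181363, described as CHD1, the chromatin remodeller used in molecular sexing of birds, ranged from 3.00 to 4.69 FPKM, against 0 to 0.285. LOC125181310, described as the histone reader SPIN1, ranged from 6.53 to 9.99 FPKM, against 0 to 0.653. None of these genes overlapped between the sides, and lactulose 3 held the highest male-like value of each.

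The table of gene names that gives chromosomes belongs to another goose assembly, and its W was a mixed set. Of 132 genes assigned to W, 106 were tested, and 20 of these lay wholly above the male-like libraries in all 6 female-like ones. The others overlapped between the sides, and the median log2 fold change over the 106 was 0.02. One W-assigned gene was between these patterns. LOC106049914, described as the constant region of the immunoglobulin alpha heavy chain, the chain of the antibody secreted onto mucosal surfaces, had 237, 322 and 386 FPKM as lowest, median and highest values in female-like libraries. In male-like libraries it had 85.6, 158 and 196 FPKM. The sides did not overlap, with a log2 fold change of 1.0 (SE 0.19), and the within-diet values were 0.72 in control, 1.63 in high protein and 0.66 in lactulose. Of the other 17 tested B and plasma cell genes on numbered chromosomes, 0 passed edgeR's test, with 0 at an unadjusted p under 0.05 and 0 by DESeq2, and the median was -0.02. Of all genes on numbered chromosomes other than 36, 0.0783% passed edgeR's test, and DESeq2 called 75 of 15318.

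Across all 16341 genes tested, 243 were called between the sides, or 1.49%, by edgeR's quasi-likelihood test with diet as a term and a Benjamini-Hochberg adjusted p under 0.05. Of these, 101 were higher in female-like libraries, or 0.618%, and 142 lower, or 0.869%. The Z chromosome supplied 136 of the 142 that were lower. Of the 101 that were higher, 19 were assigned to W, 12 to the table's chromosome 36 and 54 to no chromosome. Those last sets hold many of the copies described above and were set apart after their values had been seen. The 16341 genes tested include LOC125179667, which made the split, and the W-like genes that follow it. Calls among these are a description only, and the totals and shares above contain them. Without lactulose 3 there were 195 calls, and without control 3 there were 282. With lactulose 3 and 5 averaged there were 192.

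Z genes were lower as a chromosome in the female-like libraries. The median log2 fold change over 767 tested Z genes was -0.39, a female-like level of 0.761 times the male-like one, and the quartiles of the log2 fold change were -0.68 and -0.06. Over all genes the median was 0.00. Of the 767, 601 were below 0, or 78.4%, compared with 49.4% of all genes tested. The 136 Z genes called lower make up 17.7% of the Z. In 160 of the 767, or 20.9%, all 6 female-like libraries lay below all 6 male-like ones in scaled CPM, against 1.05% of all genes and 0.0522% of genes on numbered chromosomes other than 36. Per library, the median deviation of Z genes lay between -0.21 and -0.16 in the female-like libraries and between 0.17 and 0.26 in the male-like ones, so that the sides did not overlap. The Z median was -0.39 within control, -0.42 within high protein and -0.39 within lactulose. Without control 3, 170 Z genes were called lower. The count was 94 without lactulose 3, 83 without control 6, 80 without high protein 5, 88 without lactulose 2 and 89 without lactulose 5. With lactulose 3 and 5 averaged it was 91.

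**Figure D2:**
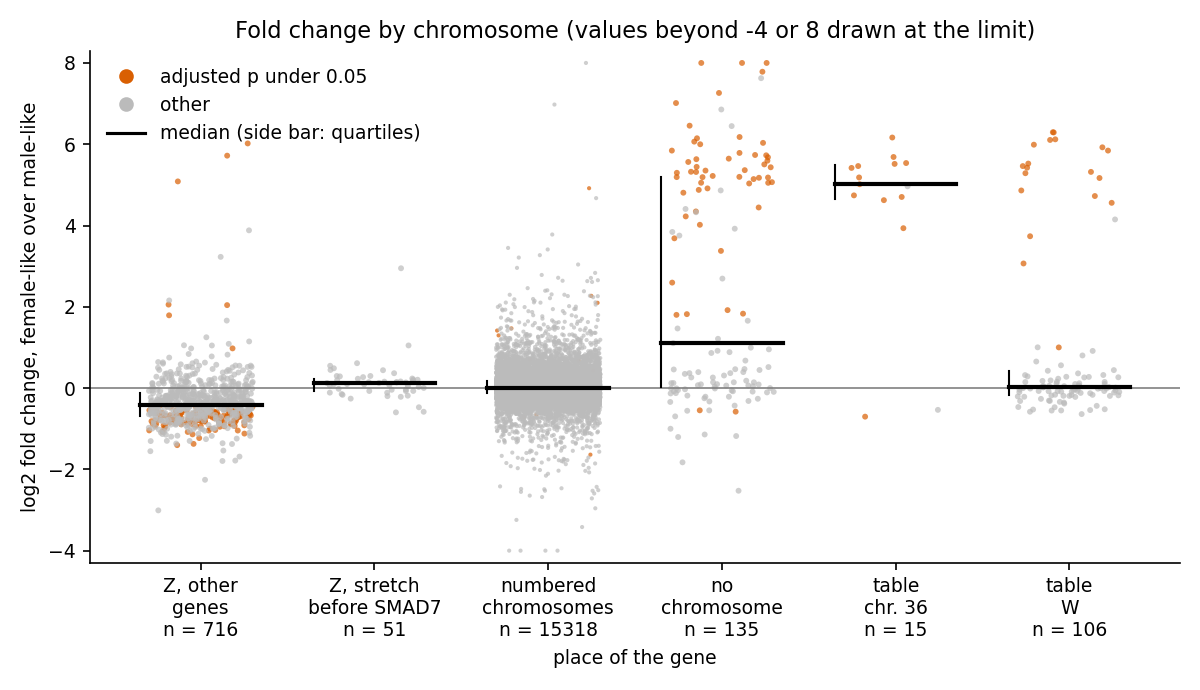
Each point is a tested gene, placed by chromosome with the Z in 2 groups (a stretch of 51 genes described below and the rest), with its log2 fold change of female-like over male-like libraries on the vertical axis. Orange points had an adjusted p under 0.05, black lines give the median and quartiles, and the few values beyond the axis are drawn at its limits. Of the Z genes 601 of 767 lie below 0, numbered chromosomes centre on 0, and many genes of the sets on the right lie near 5.

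The 6 Z genes with the smallest p among those called lower were MTREX, MBLAC2, PHAX, NAA35, ERCC6L2 and RAD17. MTREX, the helicase that feeds RNA to the nuclear exosome, had 12.1, 12.3 and 14.8 FPKM as lowest, median and highest values in female-like libraries, against 18.2, 20.4 and 23.0 FPKM in male-like libraries. The sides did not overlap, and the log2 fold change was -0.79 (SE 0.08, adjusted p = 0.00104 by edgeR). PHAX, the adaptor that exports small nuclear RNAs, had 19.5, 20.3 and 25.4 FPKM, against 26.6, 33.8 and 37.7 FPKM in male-like libraries. It fell by 0.72 on the log2 scale (adjusted p = 0.00119 by edgeR), with no overlap. RAD17, a loader of the DNA damage checkpoint clamp, had 8.01, 9.01 and 10.4 FPKM, against 13.2, 15.6 and 17.5 FPKM in male-like libraries. It fell by 0.85 (adjusted p = 0.00180 by edgeR), again with no overlap. The others were MBLAC2, an enzyme with a metallo-beta-lactamase fold, at -0.92, NAA35, a subunit of an N-terminal acetyltransferase, at -0.74, and ERCC6L2, a DNA repair helicase, at -0.79. These 6 calls held in all 12 fits that each left out 1 library.

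Among genes known to keep partners on the W in other birds, 23 assigned to the Z were tested. Of these, 10 were called lower, against 17.7% of all Z genes tested and 0.869% of all genes. The 1 called higher, SUB1, had W-like levels, described below, so its call is a description only. In all 20 of the 23 were below 0, and the median was -0.52. HNRNPK itself had 44.8, 53.9 and 59.1 FPKM in female-like libraries, against 64.6, 76.8 and 83.2 FPKM in male-like libraries, with no overlap and a log2 fold change of -0.61 (SE 0.09, adjusted p = 0.00435 by edgeR). ATP5F1A, a catalytic-head subunit of mitochondrial ATP synthase, had 218, 237 and 265 FPKM, against 352, 383 and 453 FPKM in male-like libraries. It fell by 0.82 (adjusted p = 0.00708 by edgeR), without overlap. RASA1, which switches off Ras, was at -0.82, VCP, the ATPase that extracts tagged proteins, at -0.67, and ZFR at -0.60. KCMF1, a ubiquitin ligase, was at -0.57, GOLPH3, a Golgi membrane protein, at -0.52, MIER3, of the MIER family of nuclear regulators, at -0.53, and CHD1 at -0.56.

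Single libraries decided some of these calls. CHD1 had an adjusted p of 0.0435 with all libraries, and by edgeR it passed only in the fit without control 3 (0.00469) among the 12 fits that each left out 1 library, whose highest value was 0.178. MIER3 (adjusted p = 0.0165 by edgeR) missed the threshold without control 6, control 7, high protein 1 or high protein 5, at up to 0.0605. NIPBL, SPIN1 and UBAP2 did not pass with all libraries, at log2 fold changes of -0.61, -0.45 and -0.39. Their edgeR adjusted p-values were 0.319, 0.711 and 0.259 with control 3, against 0.00192, 0.0341 and 0.0222 without it. NIPBL had 5.55, 6.89 and 7.85 FPKM in female-like libraries and 3.79, 11.4 and 12.1 FPKM in male-like ones, and the lowest male-like value, below all female-like ones, was control 3. HINT1, a small hydrolase with many copies on the W of some birds, overlapped between the sides at -0.50 (SE 0.27, adjusted p = 0.868 by edgeR), or -0.17 without control 3.

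The summed level of Z gene and copy was nearer between the sides than the Z gene alone in many pairs. In 25 pairs, a single copy with a CPM of 1 or more matched a single Z gene by description. The Z gene was below 0 in 22 and called lower in 11, and the median ratio of female-like to male-like FPKM was 0.707 for the Z gene alone. For the sum of Z gene and copy the median ratio was 1.10, with a range from 0.607 to 5.84. The highest ratio was that of SYT4, whose Z gene had 0.398 FPKM in female-like and 0.236 FPKM in male-like libraries. The sum was closer to 1 than the Z gene alone in 16 of 25. These ratios are a description, since copies were kept for their female-like level and 1 pair holds the gene of the split. Within female-like libraries the copy was below its Z gene in 19 of 25, at a median of 61.3% of it. How reads shared by a Z gene and its copy were assigned is not stated in any source at hand, so the level of each member of a pair is uncertain.

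STOML2, a protein of the inner mitochondrial membrane, summed to 46.9 ± 2.97 FPKM in female-like libraries and 46.5 ± 4.42 in male-like ones (SD, n = 6 each), although its Z gene alone had 29.1 ± 1.59 against 45.8 ± 4.83. The difference in this sum was within the SD of either side. HNRNPK summed to 78.9 ± 8.29 FPKM in female-like libraries and 76.1 ± 6.62 in male-like libraries, but its copy is the gene that made the split, so that sum rests on the values used to choose the sides. KCMF1 summed higher in female-like libraries, with 36.7 ± 1.97 FPKM in female-like libraries and 19.0 ± 3.26 in male-like ones. PIAS2, a SUMO ligase, did too, at 11.5 ± 1.31 and 7.67 ± 1.59 FPKM. SMAD7, an inhibitor of TGF-beta signalling, stayed lower at 9.04 ± 0.758 FPKM in female-like libraries and 13.3 ± 1.62 in male-like ones, and its copy LOC125181542 had 1.19 FPKM in female-like libraries. The entry matched to ATP5F1A, LOC125181309, had 0.991 FPKM beside 238 FPKM of the Z gene in female-like libraries. It still had 0.594 FPKM in male-like libraries, unlike most copies, and whether it is a W copy of ATP5F1A was not tested. The entries matched to CERT1 and PSIP1 were not higher in female-like libraries, at 4.61 and 5.33 FPKM, against 4.68 and 6.35 FPKM in male-like ones. Whether they are W copies was not tested either. All of these entries are among the 38 copies and the 25 pairs above, so the values given there include them.

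**Figure D3:**
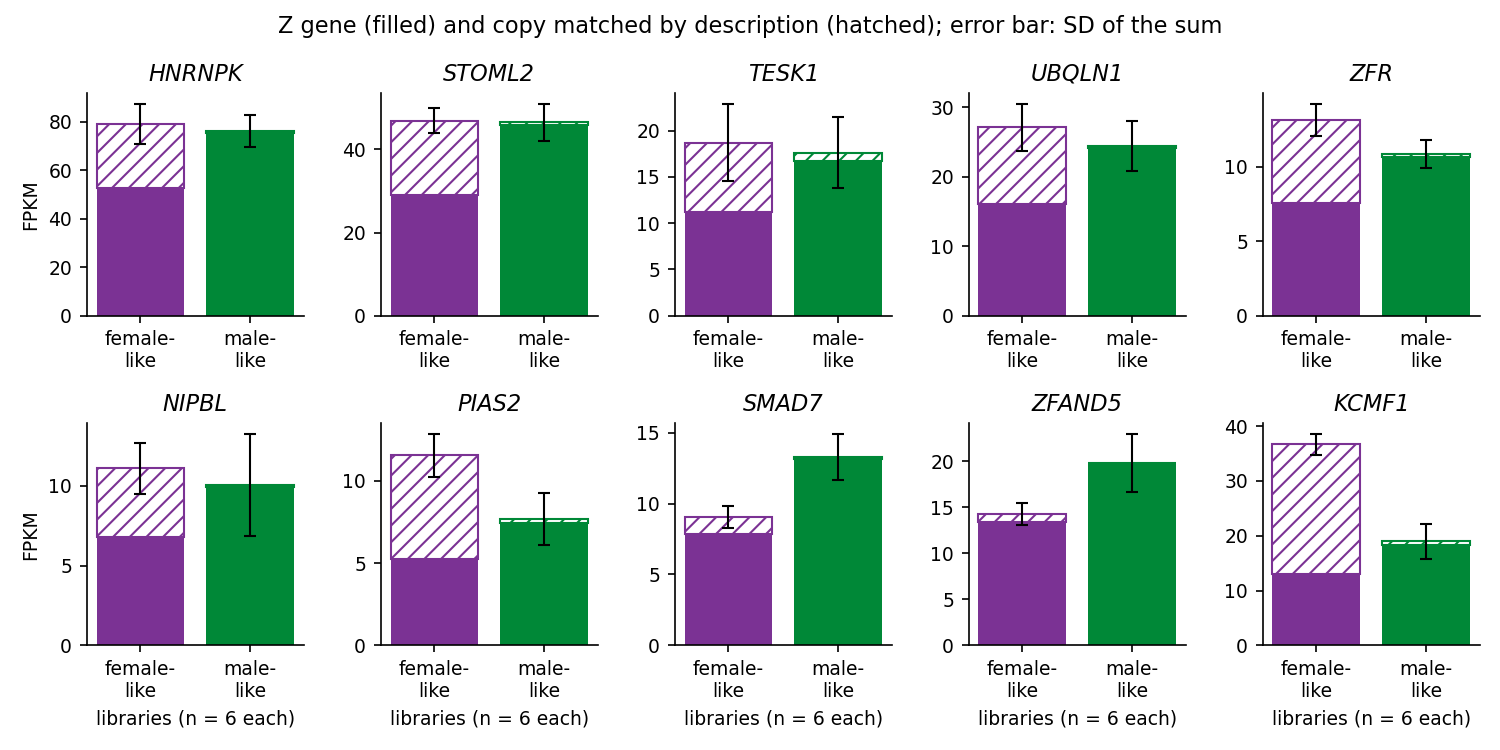
For 10 Z genes, stacked bars give the mean FPKM of the Z gene (filled) and of the copy matched by description (hatched) in 6 female-like libraries on the left and 6 male-like libraries on the right of each panel. The error bar is the SD of the sum. The sums are alike for HNRNPK and STOML2, higher in female-like libraries for KCMF1 and PIAS2, and lower for SMAD7 and ZFAND5.

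One stretch of the Z had no lower level in the female-like libraries. It lies on the Z scaffold with the most tested genes, 54, whose median was 0.11, against -0.69 to -0.20 on the other 30 Z scaffolds with 10 or more. The 51 genes from the scaffold's start to DYM, which begins at 2439692, had a median of 0.13. Of these 51, 17 were below 0 and 0 were called by edgeR, with 2 at an unadjusted p under 0.05, and 0 were called by DESeq2 or limma. The other 716 Z genes had a median of -0.43, and 584 were below 0. Among the 34 stretch genes that averaged 1 FPKM or more the median was 0.08. The stretch was picked out after its values were seen, so no test is given for it as a whole.

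The genes of the stretch include common ones of the intestine. LMAN1, a cargo receptor of the secretory pathway, had 34.9 ± 2.78 FPKM in female-like libraries and 33.5 ± 1.94 in male-like ones (SD, n = 6 each). SMAD4, the shared partner of TGF-beta signal carriers, had 30.8 ± 2.77 and 25.6 ± 4.82 FPKM. ACAA2, a mitochondrial enzyme of fatty acid breakdown, had 133 ± 11.2 and 139 ± 25.6 FPKM, RPL17 of the large ribosomal subunit 1033 ± 227 and 1131 ± 379, and DYM 6.01 ± 1.06 and 5.52 ± 1.33. Each of these overlapped between the sides. The next gene, SMAD7, begins at 2688602, and it had 6.78, 7.63 and 8.80 FPKM in female-like libraries, against 10.1, 13.7 and 14.3 FPKM in male-like libraries, with no overlap and a log2 fold change of -0.84 (SE 0.12, adjusted p = 0.00386 by edgeR). CTIF, the gene after it, a factor in the first round of translation, was at -0.48 (SE 0.27, adjusted p = 0.877 by edgeR). SMAD7 had 1 copy by description and CTIF had 2, and each of these was higher in every female-like library than in any male-like one. That is a description only, since these copies were kept for their female-like level. Of all genes tested, 0.722% lay wholly higher in this way.

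**Figure D4:**
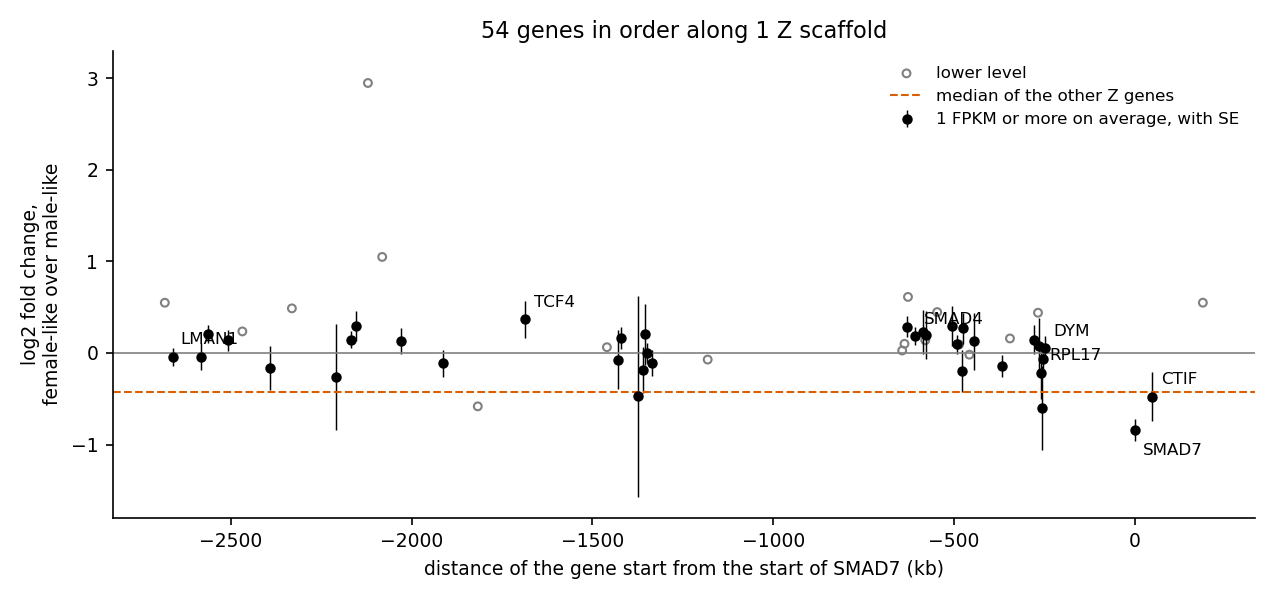
Each point is 1 of 54 tested genes of a Z scaffold, with the distance of its start from the start of SMAD7 in kb on the horizontal axis and its log2 fold change of female-like over male-like on the vertical axis. Filled points average 1 FPKM or more and carry the SE, and the dashed line is the median of the other Z genes, -0.43. Genes before SMAD7 scatter around 0, and SMAD7 and CTIF lie below it.

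Against the trend of the chromosome, 7 genes assigned to the Z were called higher in female-like libraries. GLDC, the glycine-splitting enzyme of the glycine cleavage system, had 1.19, 2.45 and 8.18 FPKM in female-like libraries, against 0.253, 0.714 and 0.982 FPKM in male-like libraries, with no overlap. Its log2 fold change was 2.05 (SE 0.33, adjusted p = 0.00711 by edgeR), and the highest value was high protein 1. FAM169A had 1.01, 1.09 and 1.57 FPKM, against 0.384, 0.565 and 0.770 in male-like libraries, with a log2 fold change of 0.98 (adjusted p = 0.00937 by edgeR). GLIS3, a zinc finger transcription factor named after its value was seen, had 0.138 ± 0.0322 FPKM in female-like and 0.0396 ± 0.0184 in male-like libraries. SUB1 and the talin-like LOC106036306, also among the 7, followed the gene of the split, with 0 FPKM in at least 1 male-like library and their highest male-like value in lactulose 3. Their calls are thus a description only, and whether they lie on the Z was not tested. SUB1, a transcription coactivator, had 18.8 to 24.9 FPKM in female-like libraries and 0 to 1.58 in male-like ones. LOC125181361, described as a tropomyosin, lies beside the talin-like gene on the same scaffold. It had 87.0 to 265 FPKM in female-like libraries and 21.4 to 65.6 in male-like ones.

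Among genes not assigned to the Z, the W or the sets that hold copies, few were called. Of 15318 genes on numbered chromosomes other than 36, 12 were called, or 0.0783%, with 9 higher and 3 lower in female-like libraries. Their median log2 fold change was 0.01, and 596 had an unadjusted p under 0.05. Counted with chromosome 36 and the genes of no chromosome, 81 of 15468 were called, or 0.524%. The 12, and thus the share of 0.0783%, include LOC125181164, which had W-like levels, and LOC106036339, described as the product of SUB1. The 12 became 6 without lactulose 3, 6 without lactulose 5, 7 without control 4 and 7 without control 6. Without control 3 there were 23, and without high protein 3 there were 21. With genes assigned to Z or W left out of the fit and its adjustment, 5 calls remained, 4 higher and 1 lower. Lost in that fit were SRD5A2, PTTG1IP, MYO7A, ACSS3, TP53I11, LOC106036076 and LOC106045675, described below.

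SRD5A2, the enzyme that turns testosterone into dihydrotestosterone, was lower in female-like libraries. It had 0.135, 0.313 and 0.528 FPKM as lowest, median and highest values there. In male-like libraries it had 0.562, 0.966 and 1.19 FPKM, so that the sides did not overlap at these low levels. The log2 fold change was -1.64 (SE 0.32, adjusted p = 0.0231 by edgeR), with -1.99 in control, -1.97 in high protein and -0.97 in lactulose. The call was lost without control 4, 6 or 7, high protein 1, 3 or 4, or lactulose 6, at up to 0.0595. It was also lost with genes assigned to Z or W left out of the fit. SRD5A2 was the only called member of 12 tested genes of steroid synthesis and breakdown, whose median was -0.17. The 11 of these on numbered chromosomes had a median of -0.0074, with 5 above 0 and 6 below, and the 1 on the Z was at -0.52. Of all genes on numbered chromosomes other than 36, 0.0783% were called.

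PTTG1IP, which binds the mitotic protein securin, had 37.3, 47.5 and 69.8 FPKM in female-like libraries, against 58.1, 69.5 and 88.6 FPKM in male-like libraries, and the ranges overlapped. It fell by 0.66 (SE 0.14, adjusted p = 0.0418 by edgeR), and that call held only without high protein 4 or without lactulose 6 among the 12 fits that each left out 1 library, with values from 0.0242 to 0.130. LOC106036339, described as the coactivator p15, the product of SUB1, had 27.2, 28.7 and 34.8 FPKM, against 35.7, 45.1 and 54.4 FPKM in male-like libraries. It fell by 0.71 without overlap (adjusted p = 0.00513 by edgeR). SUB1 thus had W-like levels although assigned to Z, and LOC106036339 was lower in female-like libraries although assigned to a numbered chromosome.

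Among the 9 higher, the trefoil factor 1-like gene LOC106036076, of a family of secreted peptides that protect the gut lining, was by far the most abundant. It had 627, 1044 and 1263 FPKM in female-like libraries, against 373, 620 and 774 FPKM in male-like libraries, with overlap. Its log2 fold change was 0.70 (SE 0.14, adjusted p = 0.0306 by edgeR), and the within-diet values were 0.69, 0.55 and 0.87 in control, high protein and lactulose. The call was lost without control 4, 6 or 7, high protein 3, 4 or 5, or lactulose 2, 3 or 5, at up to 0.110. ACSS3, a mitochondrial synthetase that activates propionate, had 1.36, 1.73 and 2.41 FPKM, against 0.622, 1.0 and 1.89 FPKM in male-like libraries, with overlap and a log2 fold change of 0.67 (adjusted p = 0.0339 by edgeR). That call held only without high protein 5 or without lactulose 2 among the 12 such fits. TP53I11, a gene induced by p53, had 13.9 to 19.2 FPKM, against 8.49 to 14.8 in male-like libraries, with a log2 fold change of 0.43 (adjusted p = 0.0335 by edgeR). It kept its call only without control 3. MYO7A, an unconventional myosin of cell protrusions, had 0.211 to 0.552 FPKM, against 0.0785 to 0.206 in male-like libraries, without overlap, at 1.30 (adjusted p = 0.0267 by edgeR). It kept its call only without control 3, control 4 or control 7.

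The remaining 5 of the 9 had LOC names and were chosen after their values were seen, as was the trefoil gene. LOC106033676, described as the synaptic vesicle protein unc-13A, had 0.548 to 0.745 FPKM in female-like libraries and 0.141 to 0.277 in male-like ones, at 1.47 (adjusted p = 0.00255 by edgeR). The non-coding RNA LOC125181177 had 7.12 to 11.1 FPKM, against 0.995 to 2.93 in male-like libraries, at 2.27 (adjusted p = 0.00150 by edgeR). The non-coding RNA LOC125183647 had 1.87 to 3.25 FPKM, against 0.360 to 0.912, at 2.1 (adjusted p = 0.00435 by edgeR). These calls held in all 12 fits that each left out 1 library. The non-coding RNA LOC106045675, at 1.42 (adjusted p = 0.0293 by edgeR), held in 3 of them, without control 3, control 7 or high protein 1. LOC125181164, described as ubiquitin-associated protein 1, had 1.44 to 1.73 FPKM in female-like libraries and 0 to 0.230 in male-like ones, highest in lactulose 3, as the copies of Z genes did.

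**Figure D5:**
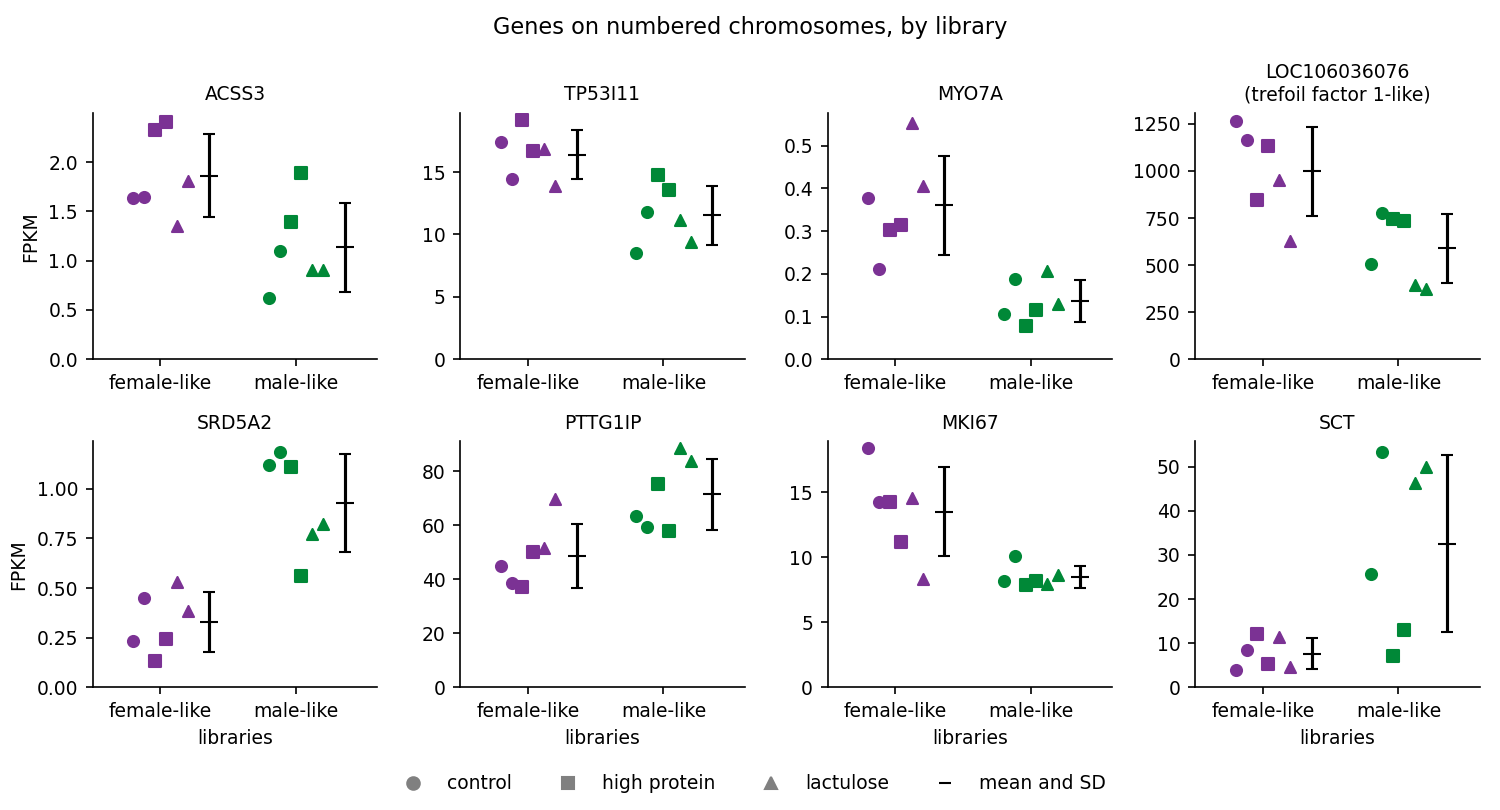
FPKM of 8 genes on numbered chromosomes by library, with the 6 female-like libraries on the left and the 6 male-like ones on the right of each panel, marker shapes for diet, and the mean with its SD beside each side. SRD5A2 and PTTG1IP lie lower in female-like libraries, ACSS3, TP53I11, MYO7A and LOC106036076 higher, and MKI67 and SCT did not pass the test.

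No steroid hormone receptor was called between the sides by edgeR or DESeq2. Of 17 tested steroid hormone receptors, 0 were called and 1 had an unadjusted p under 0.05, with a median of -0.03. On numbered chromosomes other than 36, edgeR called 0.0783% of all genes, and DESeq2 called 75 of 15318. In lists this small, here and below, 0 calls thus do not set the members apart from other genes. The estrogen receptor ESR1 had 0.583, 0.768 and 1.70 FPKM in female-like libraries, against 0.488, 0.686 and 1.20 FPKM in male-like libraries, and the log2 fold change was 0.15 (SE 0.24). The progesterone receptor PGR was at 0.23 (SE 0.25). Both overlapped between the sides. Of 16 growth hormone axis genes on numbered chromosomes, 0 were called by edgeR or DESeq2 and 1 had an unadjusted p under 0.05. GHR, the growth hormone receptor on the Z, was at -0.28 (SE 0.16). PRLR, the prolactin receptor on the Z, had 6.81, 9.82 and 12.6 FPKM, against 6.89, 15.0 and 20.1 FPKM in male-like libraries, at -0.64 (SE 0.17, adjusted p = 0.127 by edgeR). Without control 3, the lowest male-like library, the adjusted p of PRLR was 0.00330, and DESeq2 gave 0.0195 with all libraries. DMRT1, the Z-linked testis gene of birds, had counts of 0 to 18 in female-like libraries and of 0 to 5 in male-like ones. Of 8 sex determination genes on numbered chromosomes, 0 were called by edgeR or DESeq2 and 0 had an unadjusted p under 0.05, with a median of 0.34.

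By edgeR, SRD5A2 was the only called member on numbered chromosomes of any of the 35 lists, although some lists leaned one way. Members of a list can vary together from library to library. Counts of members in the same direction, here and below, are thus a description and no test. All 37 tested cell cycle genes there were above 0, with a median of 0.39, against 48.3% of the 15318 genes on these chromosomes below 0. Of the 37, 15 had an unadjusted p under 0.05, as did 596 of the 15318. The summed FPKM of the list ranged from 432 to 650 in female-like libraries and from 372 to 498 in male-like ones, with overlap. MKI67, the standard mark of dividing cells, had 8.35, 14.2 and 18.4 FPKM, against 7.83, 8.17 and 10.1 FPKM in male-like libraries, at 0.55 (SE 0.14, adjusted p = 0.0998 by edgeR). Without lactulose 6, the lowest female-like library, that adjusted p was 0.0146. ESPL1, the protease that splits cohesin at anaphase, was at 0.44 (SE 0.12, adjusted p = 0.140 by edgeR). DESeq2 called MKI67 and ESPL1, at adjusted p-values of 0.0117 and 0.00552, among 75 calls of the 15318 genes on these chromosomes.

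Markers of the other tissue layers leaned too. In bulk tissue, fewer cells of a type and less RNA per cell cannot be told apart. All 24 fibroblast and matrix genes were above 0, with a median of 0.38, and all 19 smooth muscle genes on numbered chromosomes, with a median of 0.30. Of 31 enterocyte genes, 30 were below 0, with a median of -0.37. The medians within control, high protein and lactulose were 0.83, -0.25 and 0.62 for fibroblast and matrix, 0.51, -0.48 and 0.85 for smooth muscle and -0.33, 0.75 and -1.62 for enterocytes, so that high protein ran the other way. COL1A1, a chain of collagen I, was at 0.71 (SE 0.27), MFAP5, a matrix microfibril protein, at 0.89 (SE 0.33), MYH11, smooth muscle myosin, at 0.42 (SE 0.29), PDLIM7, a muscle LIM protein, at 0.22 (SE 0.13), KRT20, an enterocyte keratin, at -0.63 (SE 0.33) and EPCAM, an epithelial adhesion protein, at -0.35 (SE 0.23). None passed edgeR's test, and all overlapped between the sides. In these 3 lists 4 fibroblast and matrix genes had an unadjusted p under 0.05, and 0 genes were called by DESeq2. Single libraries moved the enterocyte median, which was -0.21 without control 6, -0.71 without control 7, -0.58 without high protein 1, -0.66 without high protein 3, -0.17 without lactulose 2 and -0.23 without lactulose 6. For smooth muscle genes it was 0.15 when control 6 was left out and 0.19 when lactulose 5 was. Without both lactulose 3 and lactulose 5, the enterocyte median was 0.16 and the smooth muscle median 0.03. With the enterocyte level of each library as a covariate, the cell cycle median was 0.43, the fibroblast and matrix median 0.27 and the smooth muscle median 0.12.

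Of 20 enteroendocrine genes on numbered chromosomes 18 were below 0, with a median of -0.28 and within-diet medians from -0.31 to -0.19. SCT, the gut hormone secretin, had 4.02, 6.93 and 12.1 FPKM in female-like libraries. In male-like libraries it had 7.09, 36 and 53.3 FPKM, with high protein 3 inside the female-like range, and the log2 fold change was -1.96 (SE 0.52, adjusted p = 0.134 by edgeR). Within diets SCT was at -2.82 in control, -0.12 in high protein and -2.77 in lactulose. It passed without high protein 1 (0.0271) or without high protein 3 (0.0254), and by DESeq2 (0.000583). DESeq2 called 75 of the 15318 genes on numbered chromosomes other than 36. PCSK1, the prohormone-cutting protease on the Z, was at -0.78 (SE 0.24, adjusted p = 0.284 by edgeR).

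The ribosomal protein and oxidative phosphorylation lists had lower medians on the Z than on numbered chromosomes. The 60 ribosomal protein genes on numbered chromosomes had a median of -0.13, and the 4 on the Z a median of -0.90. RPL37 had 413, 703 and 1052 FPKM in female-like libraries. In male-like libraries it had 624, 1236 and 3511 FPKM, the last in control 3, and at -1.01 (SE 0.44) it did not pass, nor did RPS23 at -1.0 (SE 0.44). Without control 3 these values were -0.55 and -0.56. The 50 oxidative phosphorylation genes on numbered chromosomes had a median of -0.12 and the 3 on the Z one of -0.92, with ATP5F1A called. Without control 3 the medians on numbered chromosomes were both 0.13. NFIL3, a repressor tied to the daily clock and to immune cells, lies on the Z and was the only one of 14 tested circadian genes called by edgeR. Of the 13 on numbered chromosomes edgeR called 0, while DESeq2 called HLF, a clock output factor, at -0.61 (adjusted p = 0.0484). NFIL3 had 8.34, 8.93 and 10.6 FPKM, against 11.5, 13.4 and 16.6 FPKM in male-like libraries, without overlap, at -0.69 (SE 0.12, adjusted p = 0.0139 by edgeR). Only without high protein 5 was that call lost, at 0.0531. IL7R, a receptor of lymphocyte survival on the Z, was at -0.61 (SE 0.18) and did not pass. The other 21 lists had 0 called of 325 tested members on numbered chromosomes by edgeR or DESeq2, 13 with an unadjusted p under 0.05, and medians from -0.34 to 0.37. Of all genes on these chromosomes other than 36, edgeR called 0.0783%, and DESeq2 called 75 of 15318.

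Whether the difference between the sides changed with diet was tested as an interaction with 2 libraries per diet and side. By edgeR, 1 of 16713 genes was called, or 0.00598%, and 2243 had an unadjusted p under 0.05. It was LOC106041678, described as interleukin-1 receptor type 1, with a log2 fold change of female-like over male-like of -1.11 in control, 1.72 in high protein and -0.61 in lactulose (adjusted p = 0.0435). Of the 12 fits that each left out 1 library, only the one without control 4 kept that call, with 1181 genes called in all. It was also lost by limma at either pseudocount and with lactulose 3 and 5 averaged. DESeq2 made the call too, among 530 genes called for the interaction. The edgeR call was kept with DESeq2 size factors, with no filter, with a CPM of 1 in 6 libraries as the filter and with counts divided by 4. The difference between the sides alone was called for 47 genes within control, or 0.281%, 27 within high protein, or 0.162%, and 1 within lactulose, or 0.00598%, of the same 16713. These counts differ between diets, but the diets were compared only by the interaction.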

How the data were processed

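Poly(A) RNA of goose ileum was sequenced in 12 libraries, 4 per diet. Per the file headers, the table the authors deposited gives each gene a raw count and an FPKM in every library. Per the submitters' processing notes, the tools included StringTie 2.1.6, HISAT2 2.2.1 and cutadapt 1.9, beside edgeR and DESeq2, with no roles given. The genome build is not given in the sources used here, nor is the handling of reads shared by similar genes. A count of 4 occurred 5063 times, against 1799 times for 3 and 1526 for 5, so what 1 count stands for is unclear. Of 19836 gene IDs, 17685 matched the RefSeq table of a Taihu goose assembly, which gave chromosomes and symbols. Another 2016 genes took the chromosome of most genes on their scaffold. No sequence is printed.

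The main test was edgeR 4.0.16's two-sided quasi-likelihood test in R 4.3.3 on the counts, with TMM scaling, filterByExpr (minimum count 10), diet and side as terms, 8 residual degrees of freedom and Benjamini-Hochberg adjustment over 16341 genes. The interaction and within-diet values came from a model with a term per diet and side (16713 genes). Each SE was the size of the log2 fold change over the root of F. Overlap was judged on TMM-scaled CPM for counts of genes and on printed FPKM for single genes. DESeq2 1.42.0, limma 3.58.1 on log2(FPKM + 0.1) and log2(FPKM + 1), other filters, a replicate block and leaving out each library were alternatives. The code was tested on simulated data. Same-numbered libraries had 6 residual correlations from -0.30 to 0.04, against -0.36 to 0.43 for 42 other pairs across diets. Replicate numbers were not used as pairs in the main test. Most same-numbered pairs lie on the same side, which was a term of the fit, so these values cannot decide whether the numbers pair libraries. The labels do not say.

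Members and the 35 gene lists were chosen with earlier results of these data known. Named genes were, off Z and W, up to 12 called genes with a symbol and 4 with a LOC name per direction, on Z the 6 called with the smallest p per direction and the extremes among members with W partners, on W the 8 most abundant, 13 genes whatever their values, and of each list every called member or the 2 with the smallest p, and the 6 with the smallest interaction p. Some of them are not reported here, and genes off this rule (SMAD7, CTIF, GLIS3, stretch genes, copies of Z genes, LOC genes on numbered chromosomes) were added after their values were seen.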

Additional observations from a re-analysis of the deposited data

Results flagged for a closer look

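Within each side, a library was marked when its gap to the nearest of the others exceeded Dixon's critical share of the range of the 6 values. Chance marks about 1 in 20 such groups, and 24 of 172 were marked. The groups are not independent, and some genes were chosen after their values were seen, so these numbers are no test of an excess. LOC125179667, which made the split, is among the genes. In lactulose 3, 11 genes with W-like levels were the highest of the male-like libraries: LOC125179667 at 2.51 FPKM, LOC125181434 at 9.90, LOC125181535 at 2.55, SUB1 at 1.58, LOC125181577 at 1.13, LOC125181310 at 0.653, LOC125181538 at 0.559, LOC106036306 at 0.448, LOC125181257 at 0.362, LOC125181363 at 0.285 and LOC125181164 at 0.230 FPKM. In control 3, 7 genes were marked: RPL37 at 3511 and RPS23 at 2817 FPKM as the highest male-like values, SPIN1 at 8.48, NIPBL at 3.79, SMAD4 at 16.3 and LOC125181814 at 7.25 FPKM as the lowest, and DMRT1 at 0.0400 FPKM against 0 in the others. Among female-like libraries, lactulose 2 was highest for MTREX at 14.8 FPKM and NAA35 at 13.9 FPKM, high protein 1 for GLDC at 8.18 FPKM and control 7 for IL7R at 46.7 FPKM. High protein 4 was the lowest for GOLPH3 at 14.8 FPKM. Among male-like libraries, control 4 was the highest for MKI67 at 10.1 FPKM.

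The difference between the sides changed with diet for LOC106041678 by edgeR's interaction test, at an adjusted p of 0.0435. Of the 12 fits that each left out 1 library, only the one without control 4 kept this call, and limma at either pseudocount did not make it. DESeq2 did, among 530 genes called for the interaction.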

How the results depend on the processing

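Over 53 genes with a test, 1199 of 1506 values under alternatives kept direction and side of the threshold, 266 lost the call, 14 gained it and 27 changed sign. The 243 calls became 399 by DESeq2, 0 with the replicate block, 139 without both lactulose 3 and 5, 47 within control, 27 within high protein, 1 within lactulose, and 168 to 282 with 1 library left out. Off Z and W, 81 became 154, 0, 26, 16 and 1 (DESeq2, block, within control, high protein, lactulose), and 67 to 86 with 1 library left out. On numbered chromosomes other than 36, 12 became 75 by DESeq2, 0 with the block, 6 with lactulose 3 and 5 averaged, 5 with Z and W left out, 4, 2 and 0 within control, high protein and lactulose, 5 without both lactulose 3 and 5, 7 without lactulose 3 and control 3, and 6 to 23 with 1 library left out. The 136 Z genes lower became 214 by DESeq2, 82 by limma with either pseudocount (0.1 or 1), 0 with the block, 10, 1 and 0 within control, high protein and lactulose, 51 without both lactulose 3 and 5, and 80 to 170 with 1 library left out. The Z median became -0.26 and -0.17 by limma at pseudocounts of 0.1 and 1, where the median of all genes moved to 0.09 and 0.05, -0.35 with the block, -0.42 within high protein, and -0.42 to -0.39 with 1 library left out. The interaction count became 530 by DESeq2, 0 by limma at a pseudocount of 0.1, 0 with lactulose 3 and 5 averaged, and 0 to 1181 with 1 library left out. The fits without lactulose 3 and 5, or lactulose 3 and control 3, were chosen after seeing the data. Whether replicate numbers pair libraries is not said in the labels. Only number 4 occurs on both sides, so the block leaves the sides to be compared through it. Signs turned with the block for COL1A1 (-0.73), EPCAM (0.59), ESR1 (-0.23), HINT1 (1.12), KRT20 (0.98), MYH11 (-0.88), PDLIM7 (-0.31), PGR (-0.28), PTTG1IP (0.0238), RPL37 (1.04) and RPS23 (1.10). They turned within high protein for COL1A1 (-0.0262), EPCAM (0.19), ESR1 (-0.40), HINT1 (0.0301), KRT20 (0.26), MFAP5 (-0.13), MYH11 (-0.48), PDLIM7 (-0.14) and PGR (-0.61), within control for CTIF (0.12) and SPIN1 (0.15), and within lactulose for GHR (0.19). ESR1 also turned with an enterocyte covariate (-0.00159), without lactulose 2 (-0.0324; -0.0324 to 0.296 with 1 library left out) and without lactulose 3 and control 3 (-0.0344), and PGR without both lactulose 3 and 5 (-0.11). Their causes were not tested. Low counts limit genes under about 0.1 FPKM, such as DMRT1.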
